A study of Mus musculus with 5 samples.

Results

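Spermatozoa stand at the end of the male germ line and primordial germ cells at its start, and the small RNAs of the 2 were set side by side here. These are 2 of the 5 libraries of the study, chosen by cell type, with 1 library a side. Spermatozoa came from the cauda epididymis and vas deferens of adult CD-1 mice. They were passed through a Percoll density gradient and given a hypo-osmotic shock, which is meant to burst other cells. Primordial germ cells came from CD-1 male gonads at 13.5 days post coitum and were drawn out with magnetic beads against CD15 (SSEA-1), with alkaline phosphatase staining as the check. The series as a whole also held CD-1 spermatogonia from testes at 8.5 days after birth, freed of adherent somatic cells in a short culture, metaphase II oocytes of superovulated C57BL/6 females, and zygotes at 15 to 18 hours after fertilization from such females mated with DBA/6J males, 1 library each. Cumulus cells had been removed with hyaluronidase. Total RNA was extracted with TRIzol, and sequences of 18 to 32 nucleotides were reported in 4 classes: miRNAs, snoRNA fragments, piRNAs and endo-siRNAs, the small interfering RNAs that cells make themselves.

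Primordial germ cells are the fetal precursors of sperm and eggs. They share a pluripotency programme with embryonic stem cells, and in the fetal testis they soon stop dividing. Spermatozoa are transcriptionally silent, so their RNA was made earlier in the germ line or was taken up in the epididymis. miRNAs guide Argonaute proteins to messages through the seed, bases 2 to 8 of the mature strand. piRNAs guide Piwi proteins and silence transposons in fetal male germ cells, while in later germ cells many come from large clusters poor in transposons. Endo-siRNAs are cut by Dicer from double-stranded RNA, and most C/D box snoRNAs direct methylation of ribosomal RNA.

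The miRNAs on which the comparison turns are shown first, with the seed in capitals, as RefSeq gives them for GRCm38.p6. RefSeq held a mature sequence for 357 of the 445 miRNAs measured. The first sequences share the let-7 seed and differ in how far apart the libraries were:
let-7f-5p: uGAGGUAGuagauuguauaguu
let-7c-5p: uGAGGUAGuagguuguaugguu
let-7e-5p: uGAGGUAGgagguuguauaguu
The following pair carries the seed of the miR-34 and miR-449 family, known for its place in meiotic and later male germ cells:
miR-34b-5p: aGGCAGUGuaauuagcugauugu
miR-449a-5p: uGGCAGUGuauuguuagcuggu
The next belong to the pluripotency cluster miR-290 to miR-295 and to the cluster of miR-183, miR-96 and miR-182, whose 3 members carry different seeds:
miR-291a-3p: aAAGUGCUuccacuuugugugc
miR-295-3p: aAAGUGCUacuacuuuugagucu
miR-182-5p: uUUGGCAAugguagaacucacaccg
miR-183-5p: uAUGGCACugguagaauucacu
miR-96-5p: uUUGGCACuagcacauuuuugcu
The last are paralogs of one seed whose genes lie in different clusters, and the 2 arms of 2 precursors:
miR-20a-5p: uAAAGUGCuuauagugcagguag
miR-20b-5p: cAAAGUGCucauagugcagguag
miR-18a-5p: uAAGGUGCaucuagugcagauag
miR-18b-5p: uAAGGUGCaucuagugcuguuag
miR-16-5p: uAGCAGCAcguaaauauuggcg
miR-322-5p: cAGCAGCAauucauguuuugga
miR-871-5p: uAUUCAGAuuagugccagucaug
miR-871-3p: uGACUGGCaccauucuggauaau
miR-872-5p: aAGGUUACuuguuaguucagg
miR-872-3p: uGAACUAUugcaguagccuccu

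Without 6 snoRNA-table entries that name no single snoRNA, the 4 tables held 21827067 reads in spermatozoa and 26563078 in primordial germ cells. piRNAs took 83.4% of them in spermatozoa and 21.9% in primordial germ cells. miRNAs took 5.57% in spermatozoa and 45.2% in primordial germ cells, and snoRNAs 4.71% in spermatozoa and 28.3% in primordial germ cells. The endo-siRNA shares lay closer together, at 6.28% in spermatozoa and 4.58% in primordial germ cells. Exact 95% intervals are far narrower than these differences but cover counting error only, and with 1 library a side no difference below has a replicate check or a test. In bulk samples fewer cells of a type and less RNA per cell cannot be told apart.

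**Figure D1:**
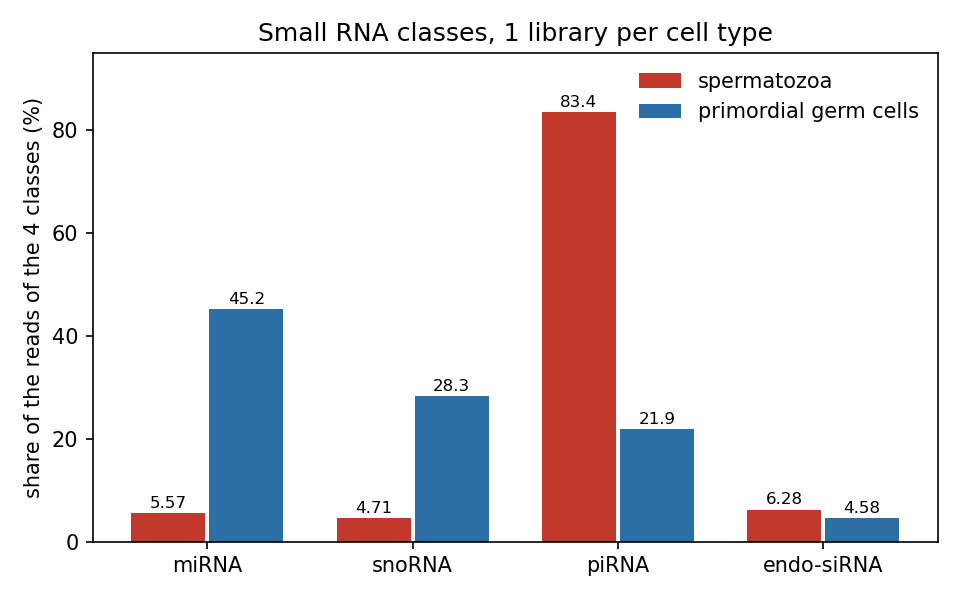
Share of the reads of the 4 small RNA classes, in percent, in spermatozoa (red) and primordial germ cells (blue), 1 library each. piRNAs led in spermatozoa with 83.4%, against 21.9% in primordial germ cells, while miRNAs led in primordial germ cells with 45.2%, against 5.57% in spermatozoa.

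Levels below are reads per 1000000 reads of the class in the library (RPM), and a log2 ratio is spermatozoa over primordial germ cells with 0.5 reads added to each. Entries were measured where the 2 libraries together had 100 reads or more, and a 4-fold distance was used for counts. Brackets after a fold give the exact 95% interval of a ratio of 2 Poisson counts. The miRNA tables held 1216358 reads in spermatozoa and 12004614 in primordial germ cells, so low miRNAs are less well resolved in spermatozoa, where 3 reads are 2.47 RPM. Scaling to the 4 classes together moves every miRNA log2 ratio by -3.02, the deposited normalised values move the median by -2.85, and trimmed-mean (TMM) factors by -0.54. Statements on miRNAs are therefore about a miRNA's place among miRNAs, and a positive log2 ratio smaller than the first 2 shifts turns negative with that scaling. Summed levels of lists cover all their members, measured or not.

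Of 445 miRNAs measured, 96 (21.6%) were higher in spermatozoa by 4-fold or more and 148 (33.3%) lower by 4-fold or more, with a median log2 ratio of -0.52. Scaled to the 4 classes together, 28 were higher and 314 lower, and with the deposited normalised values 31 were higher and 303 lower. Of the 148 lower miRNAs, 37 had 0 reads in spermatozoa. With 5 reads added in place of 0.5, 96 were higher and 114 (25.6%) lower. The balance also turned with the minimum. With a minimum mean of 10 RPM, chosen after seeing the data, 30.3% were higher and 28.2% lower, with a median of 0.11, and with a minimum of 1 read 39.0% were higher and 19.8% lower, with a median of 0.70. The miRNAs of spermatozoa were led by miR-143-3p, a miRNA abundant in smooth muscle, at 230279 RPM in spermatozoa and 9230 RPM in primordial germ cells. The germ cell miRNA miR-34c-5p followed at 221799 RPM in spermatozoa and 3181 RPM in primordial germ cells, a fold of 69.7 (69.0 to 70.5). miR-143-3p was 23.03% of the miRNA reads of spermatozoa and miR-34c-5p 22.2%. miR-143-3p was as high in spermatogonia, at 230893 RPM, and had 26338 RPM in oocytes and 20925 RPM in zygotes. The leading miRNAs of primordial germ cells were miR-182-5p, at 5113 RPM in spermatozoa and 279837 RPM in primordial germ cells, and miR-183-5p, at 1274 RPM in spermatozoa and 97110 RPM in primordial germ cells. Several other abundant miRNAs differed by less: miR-148a-3p, which targets Dnmt1, had 21908 RPM in spermatozoa and 39397 RPM in primordial germ cells, and miR-30a-5p 11426 RPM in spermatozoa and 21414 RPM in primordial germ cells. miR-21a-5p had 18857 RPM in spermatozoa and 12840 RPM in primordial germ cells, while miR-103-3p lay further apart with 3086 RPM in spermatozoa and 25144 RPM in primordial germ cells.

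The miR-290 to miR-295 cluster, the main miRNA cluster of mouse embryonic stem cells, was all but absent from spermatozoa. All 14 of its measured members were lower by 4-fold or more there, against 33.3% of all miRNAs, and their summed level was 65.8 RPM in spermatozoa and 42592 RPM in primordial germ cells. That sum is 80 reads in spermatozoa, a fold of 648 lower (520 to 817). miR-291a-3p had 7 reads in spermatozoa, 5.75 RPM, and 10762 RPM in primordial germ cells. miR-295-3p had 20.6 RPM in spermatozoa and 10682 RPM in primordial germ cells. miR-291b-5p and miR-291a-5p had no read in spermatozoa and 2742 and 2584 RPM in primordial germ cells, which makes them at least 1112-fold and at least 1048-fold lower. 7 of the 14 had 0 reads in spermatozoa, and with these set at 3 reads the median log2 ratio was -7.95, against -8.65 with 0.5 reads added. Of the cluster of miR-302 and miR-367, miR-302b-3p alone was measured, with 0 reads in spermatozoa and 10.03 RPM in primordial germ cells. It has the seed of miR-291a-3p and miR-295-3p. The defining miRNAs of early germ cells were thus measured in the library labelled primordial germ cells, and those of late male germ cells, given next, in the library labelled spermatozoa.

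The 3 genes of the cluster of miR-183, miR-96 and miR-182 lie on chromosome 6 and are known from sensory organs and germ cells. Summed, they gave 6894 RPM in spermatozoa and 383342 RPM in primordial germ cells, 55.6-fold lower (54.4 to 56.8), and all 4 measured strands were lower by 4-fold or more. They did not move in step. miR-183-5p was 76.2-fold lower in spermatozoa (72.5 to 80.2) and miR-182-5p 54.7-fold lower (53.4 to 56.1). miR-96-5p had 506 RPM in spermatozoa and 6383 RPM in primordial germ cells, 12.6-fold lower, so its distance was several times smaller than those of its neighbours.

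miR-34b/c and miR-449 lay at the other end, with all 5 measured strands higher in spermatozoa by 4-fold or more, against 21.6% of all miRNAs. Their sum was 235995 RPM in spermatozoa and 3199 RPM in primordial germ cells. miR-449a-5p, from an intron of Cdc20b on chromosome 13, had 3534 RPM in spermatozoa and 1.25 RPM in primordial germ cells, where it had 15 reads: a fold of 2829 (1713 to 5058). miR-34b-3p had 6083 RPM in spermatozoa and 4.91 RPM in primordial germ cells, and miR-34c-3p 3785 RPM in spermatozoa and 5.00 RPM in primordial germ cells. The 5p strand of miR-34c was less far apart than the other 4, since it had 3181 RPM in primordial germ cells.

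The let-7 family, which marks differentiated cells and is held down by Lin28 in early germ cells, was higher by 4-fold or more in 10 of 11 measured members, against 21.6% of all miRNAs. Its sum was 112146 RPM in spermatozoa and 6524 RPM in primordial germ cells, 17.2-fold higher (17.04 to 17.34). let-7f-5p led with 52047 RPM in spermatozoa and 2519 RPM in primordial germ cells. let-7b-5p was furthest apart, at 2086 RPM in spermatozoa and 39.7 RPM in primordial germ cells. let-7e-5p was the exception at 346 RPM in spermatozoa and 201.0 RPM in primordial germ cells, a log2 ratio of 0.79, and it fell below 0 with scaling to the 4 classes together or the deposited normalised values. The miR-29 family, which targets the de novo DNA methyltransferases, was higher by 4-fold or more in 3 of 3, against the same 21.6%, though not all 3 stayed above 0 with scaling to the 4 classes together or the deposited normalised values. It included miR-29a-3p at 2952 RPM in spermatozoa and 136.5 RPM in primordial germ cells. Of the 4 measured miRNAs of the Hox clusters, miR-10a-5p and miR-10b-5p, or 2 of 4, were higher by 4-fold or more, against 21.6% of all miRNAs. miR-10b-5p had 19056 RPM in spermatozoa and 2224 RPM in primordial germ cells. The median log2 ratio of these 4, 2.31, turned to -0.71 when scaled to the 4 classes together and to -0.53 with the deposited normalised values.

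**Figure D2:**
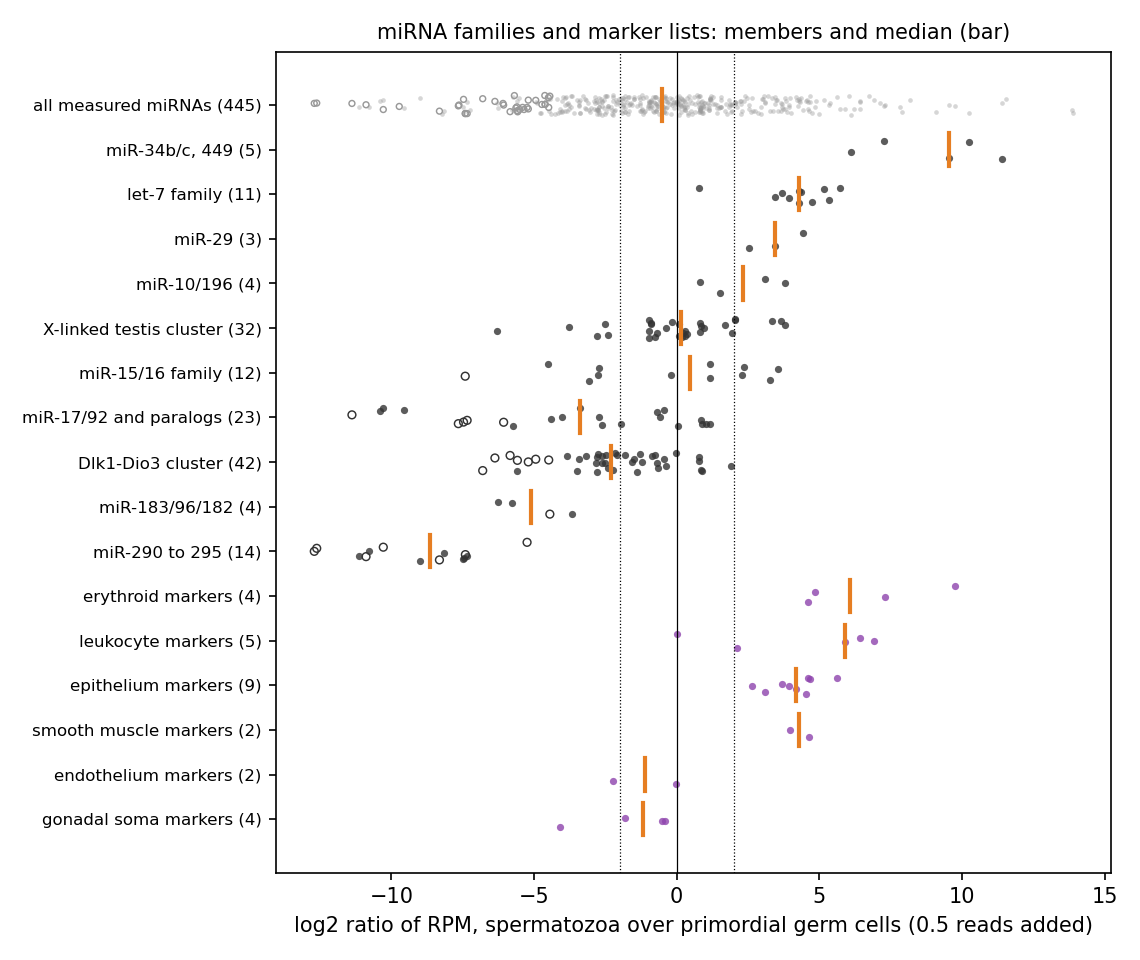
Log2 ratio of RPM, spermatozoa over primordial germ cells, for each measured miRNA (points) and the median (orange bar) of all measured miRNAs, of 10 families or clusters (black) and of 6 lists of markers of other cell types (purple), with the number measured in brackets. Open points had 0 reads in spermatozoa, and dotted lines mark 4-fold. The miR-290 to miR-295 cluster lies furthest to the left with a median of -8.65, and miR-34b/c with miR-449 furthest to the right with 9.55.

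miRNAs with the same seed but from different genomic clusters differed between the libraries by unlike amounts. This needs no scaling between libraries, because paralogs can be set against each other within a library. The cluster of miR-106a and miR-363 lies on the X chromosome at chrX:52742503-52742567 (Mir106a) to chrX:52741693-52741767 (Mir363), on the minus strand of GRCm38. Its relatives of the miR-17/92a-1 cluster lie in Mir17hg on chromosome 14, and those of the miR-106b/25 cluster lie in Mcm7 on chromosome 5. miR-20b-5p of the X cluster had 5.48 RPM in spermatozoa and 7956 RPM in primordial germ cells, 1452-fold lower (671 to 3438). miR-20a-5p of chromosome 14 differs from it at 2 of 23 positions and had 2709 RPM in spermatozoa and 17758 RPM in primordial germ cells, 6.56-fold lower. There were thus 494.2 reads of miR-20a-5p for each of miR-20b-5p in spermatozoa (228 to 1172), against 2.23 in primordial germ cells. For the pair miR-18a-5p and miR-18b-5p the count was 2120 reads against 1 in spermatozoa, a ratio with an interval of 380 to 83775, and the ratio was 2.99 in primordial germ cells. For miR-17-5p over miR-106a-5p it was 494.8 in spermatozoa (102.3 to 3069) and 4.75 in primordial germ cells. miR-363-3p had no read in spermatozoa and 1098 RPM in primordial germ cells, at least 445-fold lower. In the other libraries the ratio of miR-20a-5p to miR-20b-5p was 19.7 in spermatogonia, 139.8 in oocytes and 264 in zygotes.

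The miR-17/92 clusters as a whole held 23 measured strands, of which 14 were lower by 4-fold or more and 0 higher by 4-fold or more, against 33.3% and 21.6% of all miRNAs. Members of 1 cluster differed among themselves: in the chromosome 14 cluster miR-17-5p was 16.1-fold lower, at 610 RPM in spermatozoa and 9808 RPM in primordial germ cells. miR-19a-3p, which shares a transcript with it, had 412 RPM in spermatozoa and 201.4 RPM in primordial germ cells. In the Mcm7 cluster miR-106b-5p was 21.1-fold lower and miR-93-5p 6.14-fold lower, whereas miR-25-3p had 4842 RPM in spermatozoa and 2673 RPM in primordial germ cells.

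The let-7 exception belonged to such a set too. let-7e-5p lies with miR-99b and miR-125a in Spaca6 on chromosome 17. miR-99b-5p had 705 RPM in spermatozoa and 12907 RPM in primordial germ cells, 18.3-fold lower, and miR-125a-5p had 139 RPM in spermatozoa and 509 RPM in primordial germ cells. In the related cluster of Mir99ahg on chromosome 16, miR-99a-5p had 922 RPM in spermatozoa and 114.1 RPM in primordial germ cells, and let-7c-5p 13721 RPM in spermatozoa and 706 RPM in primordial germ cells. A second copy of let-7c lies on chromosome 15, and the mature strands of the 2 cannot be separated. Within a library, miR-99a-5p over miR-99b-5p was 1.31 in spermatozoa (1.196 to 1.431) and 0.00884 in primordial germ cells, and let-7c-5p over let-7e-5p was 39.6 in spermatozoa and 3.51 in primordial germ cells. Measured across libraries, the higher level of miR-99a-5p in spermatozoa was lost with scaling to the 4 classes together, which gave a log2 ratio of -0.0060.

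The miR-15/16 family, linked to exit from the cell cycle, also held members that lay on either side of 0. miR-16-5p had 14226 RPM in spermatozoa and 2798 RPM in primordial germ cells, and miR-15b-5p 1970 RPM in spermatozoa and 406 RPM in primordial germ cells. miR-322-5p, which has the seed of miR-16-5p but lies on the X chromosome at chrX:53054255-53054349, had 121 RPM in spermatozoa and 1028 RPM in primordial germ cells. Its neighbour miR-503-5p had 5.75 RPM in spermatozoa and 140.5 RPM in primordial germ cells. miR-16-5p over miR-322-5p was 118 in spermatozoa (100 to 139) and 2.72 in primordial germ cells. miR-16-5p and miR-15b-5p were higher in spermatozoa relative to all miRNAs but not with scaling to the 4 classes together or with the deposited normalised values.

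**Figure D3:**
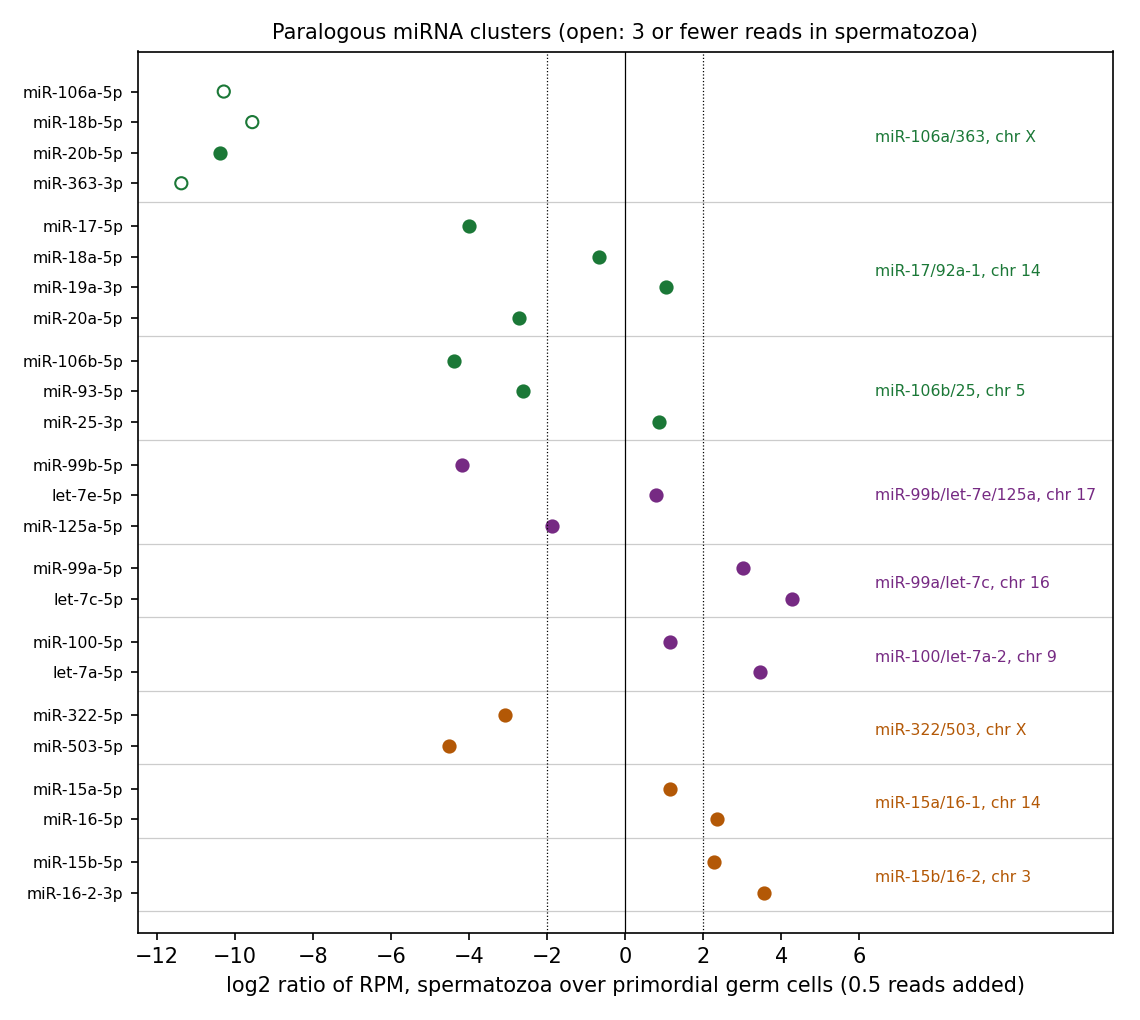
Log2 ratio of RPM, spermatozoa over primordial germ cells, for miRNAs of 9 genomic clusters in 3 groups of paralogs (green, purple, brown), with the chromosome of each cluster. Open points had 3 or fewer reads in spermatozoa and are poorly resolved. The 4 members of the X-linked cluster of miR-106a and miR-363 lie between -9.56 and -11.4, while the members of its relatives shown lie between -4.40 and 1.04.

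miRNAs placed on the X chromosome outside the testis cluster numbered 37, of which 21 were lower by 4-fold or more and 7 higher by 4-fold or more, with a median log2 ratio of -2.56. The lower ones include strands of the cluster of miR-106a and miR-363 and of miR-322 and miR-503, given above. The part of these clusters in the median was not tested. For 343 miRNAs placed on 1 autosome the median was -0.54, with 115 lower and 72 higher. The X-linked testis cluster, a group of fast-evolving miRNAs that includes miR-871, miR-878 and miR-880, differed from both. Of 32 measured strands 5 were higher by 4-fold or more and 5 lower by 4-fold or more. The median was 0.14, which turned negative with TMM factors, scaling to the 4 classes together or the deposited normalised values. Its most abundant members were lower in spermatozoa. miR-878-5p had 5197 RPM in spermatozoa and 35737 RPM in primordial germ cells, and miR-880-3p 2747 RPM in spermatozoa and 15511 RPM in primordial germ cells. The imprinted Dlk1-Dio3 cluster of chromosome 12 had 42 measured members, of which 24 were lower by 4-fold or more and 0 higher by 4-fold or more, against 33.3% and 21.6% of all miRNAs, with a sum of 3411 RPM in spermatozoa and 7829 RPM in primordial germ cells. The miR-297, miR-466, miR-467 and miR-669 families, many of them from an intron of Sfmbt2, had 6 higher and 5 lower of 40, below both of these shares. They held miR-466i-5p with 511 RPM in spermatozoa and 0.908 RPM in primordial germ cells, and miR-466f-3p with 2625 RPM in spermatozoa and 8.94 RPM in primordial germ cells.

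Some precursors gave a different arm in the 2 libraries, which again needs no scaling between them. Precursors were taken where both arms were listed and each library had 100 reads or more. The share of the 5p arm differed by a median of 2.41 percentage points, and by at least 10 points in 31, or 24.2% of precursors. In 11, or 8.59%, the other arm led, and in 8 of these both exact intervals lay clear of 50%. miR-871 was furthest apart. Its 5p arm held 90.3% of 3052 reads in spermatozoa (89.2 to 91.3) and 5.71% of 243113 reads in primordial germ cells (5.62 to 5.81). The share of this arm was 4.11% in spermatogonia, 3.46% in oocytes and 5.05% in zygotes, so spermatozoa stood apart from all 4 other libraries. The 3p arm carried the distance: miR-871-3p had 243 RPM in spermatozoa and 19095 RPM in primordial germ cells, while miR-871-5p had 2266 RPM in spermatozoa and 1157 RPM in primordial germ cells. The 2 arms have unrelated seeds, as printed above.

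miR-151 and miR-872 followed the same way, and like the other precursors named here they were picked after their values were seen. The 5p arm of miR-151 held 86.1% of 1666 reads in spermatozoa (84.3 to 87.7) and 7.20% of 66778 reads in primordial germ cells (7.004 to 7.397). That of miR-872 held 72.3% in spermatozoa (70.1 to 74.3) and 2.21% in primordial germ cells (1.92 to 2.54). In the opposite direction, the 5p arm of miR-106b held 43.3% in spermatozoa (39.7 to 46.9) and 94.3% in primordial germ cells (94.1 to 94.4). For miR-34b the 5p arm held 11.5% in spermatozoa, but only 120 reads stood behind the 50.8% of primordial germ cells (41.6 to 60.1).

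**Figure D4:**
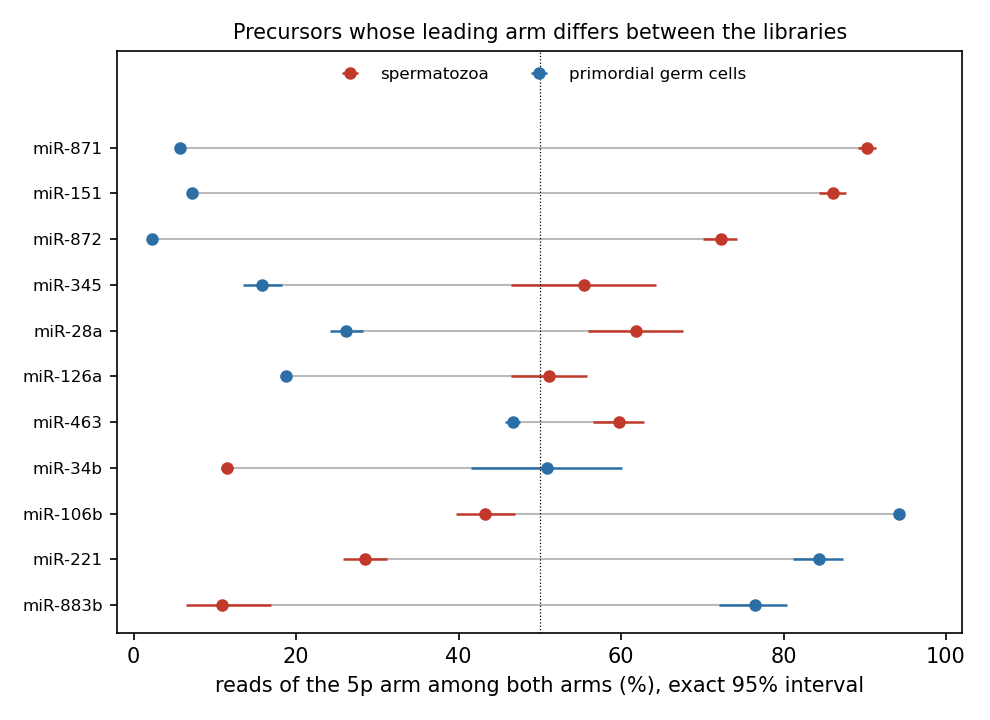
Share of the 5p arm among the reads of both arms, in percent with the exact 95% interval, in spermatozoa (red) and primordial germ cells (blue), for the 11 precursors whose leading arm differed. The dotted line marks 50%. miR-871 is furthest apart, with 90.3% in spermatozoa and 5.71% in primordial germ cells.

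The 10 miRNAs with the highest ratios held, beside those of the miR-34, miR-449, miR-466 and miR-144 genes, 3 with no read in primordial germ cells. miR-511-3p had 635 RPM in spermatozoa, miR-7210-5p 615 RPM and miR-6931-5p 123 RPM. These were at least 2540-fold, at least 2461-fold and at least 493.5-fold higher. miR-7210-5p also had 0 reads in spermatogonia, oocytes and zygotes. miR-3473e, of a repeat-like group, had 447 RPM in spermatozoa and 1.85 RPM in primordial germ cells. Of the 10 lowest, 6 belonged to the miR-290 to miR-295 cluster and 3 to the cluster of miR-106a and miR-363. The other was miR-298-5p, with no read in spermatozoa and 348 RPM in primordial germ cells.

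Markers of other cell types were also unequal, and their counts are to be read against the 21.6% of all miRNAs that were higher and the 33.3% that were lower. Erythroid miRNAs were higher in spermatozoa by 4-fold or more in 4 of 4, with a sum of 19450 RPM in spermatozoa and 213.1 RPM in primordial germ cells. miR-451a made up most of it, at 15832 RPM in spermatozoa and 99.9 RPM in primordial germ cells. Epithelial miRNAs, the miR-200 family with miR-203 and miR-205, were higher by 4-fold or more in 9 of 9, with 23750 RPM in spermatozoa and 1526 RPM in primordial germ cells. Leukocyte miRNAs were higher to that degree in 4 of 5, with 3106 RPM in spermatozoa and 588 RPM in primordial germ cells, though miR-142-3p was lower with scaling to the 4 classes together or the deposited normalised values. The smooth muscle miRNAs miR-143-3p and miR-145a-5p were higher in 2 of 2, and miR-1a-3p of striated muscle had 904 RPM in spermatozoa and 21.6 RPM in primordial germ cells. Gonadal somatic markers, from miR-202 and miR-140, of which 1 of 4 was lower by 4-fold or more, summed to 8092 RPM in spermatozoa and 12356 RPM in primordial germ cells, endothelial markers to 375 RPM in spermatozoa and 1051 RPM in primordial germ cells, and neuronal markers to 1714 RPM in spermatozoa and 4540 RPM in primordial germ cells. Of the 2 endothelial strands measured, 1 was lower by 4-fold or more: miR-126a-3p had 183 RPM in spermatozoa and 854 RPM in primordial germ cells. The other strand, miR-126a-5p, was level, with a log2 ratio of -0.038. miR-202-5p of gonadal somatic cells had 99.5 RPM in spermatozoa and 1721 RPM in primordial germ cells. Of 8 neuronal miRNAs, 2 were higher by 4-fold or more and 4 lower by 4-fold or more, with 2 at 0 reads in spermatozoa, and the liver miRNA miR-122 had 0 reads in both. The part of other cells in the let-7, miR-10, miR-29 and miR-143 levels was not tested.

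Among snoRNAs, SNORD60 alone made up 88.1% of the class in spermatozoa and 91.2% in primordial germ cells, so ratios of the other entries rest on a small remainder. Of 116 entries measured, 26 (22.4%) were higher in spermatozoa by 4-fold or more and 18 (15.5%) lower by 4-fold or more. Scaling changed this balance. There were 18 higher and 25 lower with TMM factors, and 20 higher and 23 lower with totals that leave out the most abundant entries. With scaling to the 4 classes together 4 were higher and 61 lower, and with the deposited normalised values 4 were higher and 55 lower.

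Neighbouring snoRNAs of 1 host gene did not share a direction. SNORD32 to SNORD35 are named after snoRNAs carried by Rpl13a, a ribosomal protein gene of chromosome 7. The GENCODE sequences of the 2 that led the class in spermatozoa after SNORD60 follow as DNA for GRCm38, with the last CTGA, the letters of the D box, in capitals. The deposited entries hold no sequence, and the SNORD35 entry may also take in reads of a second gene copy. These letters occur in 79.5% of the 1507 snoRNA transcripts of that annotation.
Snord32a, chr7:45127382-45127464, minus strand: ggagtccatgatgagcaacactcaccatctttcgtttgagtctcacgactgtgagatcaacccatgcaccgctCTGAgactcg
Snord35a, chr7:45126346-45126435, minus strand: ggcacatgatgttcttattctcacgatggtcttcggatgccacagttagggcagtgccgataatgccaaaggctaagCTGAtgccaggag

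SNORD32 had 62488 RPM in spermatozoa and 472 RPM in primordial germ cells, 132.5-fold higher (128.1 to 137.1). SNORD35 had 12064 RPM in spermatozoa and 61030 RPM in primordial germ cells, 5.06-fold lower (4.97 to 5.15). Within a library, SNORD32 over SNORD35 was 5.18 in spermatozoa (5.08 to 5.28) and 0.00773 in primordial germ cells (0.00747 to 0.00799), a distance that no scaling between libraries can alter. The ratio was 0.0134 in spermatogonia, 0.0753 in oocytes and 0.0454 in zygotes. SNORD33, with 69.4 RPM in spermatozoa and 65.9 RPM in primordial germ cells, and SNORD34, with 189 RPM in spermatozoa and 90.4 RPM in primordial germ cells, were low in both libraries.

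The snoRNAs of Gas5, a growth-arrest transcript whose introns hold many C/D box snoRNAs, had 2 of 5 lower by 4-fold or more, against 15.5% of all snoRNA entries. SNORD78 had 30.7 RPM in spermatozoa and 2227 RPM in primordial germ cells, 72.7-fold lower (50.6 to 104.6), and was the entry with the lowest ratio of the class. SNORD47 of the same host had 77.8 RPM in spermatozoa and 29.9 RPM in primordial germ cells. Of the entries with the highest ratios after SNORD32, SNORD67 had 250 RPM in spermatozoa and 2.92 RPM in primordial germ cells, and SNORD71 247 RPM in spermatozoa and 4.85 RPM in primordial germ cells. SNORD83B had 5255 RPM in spermatozoa and 157 RPM in primordial germ cells, and SNORD17 1330 RPM in spermatozoa and 63.2 RPM in primordial germ cells. All 5 stayed higher in spermatozoa under each scaling tried. At the low end, SNORA52 and SNORA1 had no read in spermatozoa, with 24.6 and 18.7 RPM in primordial germ cells. By structure, 18 of 85 C/D box entries were higher by 4-fold or more and 10 lower by 4-fold or more, and 4 of 19 H/ACA box entries, which guide pseudouridylation, lay in each direction. Over all snoRNA entries 22.4% were higher and 15.5% lower, so the shares of both structures that were higher lay near that of all entries.

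piRNA reads were more concentrated in spermatozoa than in primordial germ cells. The tables differ in depth, with 18212803 piRNA reads in spermatozoa and 5820204 in primordial germ cells, so numbers of entries with a read and their overlap cannot be told apart from depth. There were 157990 entries with a read in spermatozoa and 90681 in primordial germ cells, of which 75274 had a read in both, 47.6% of the entries of spermatozoa and 83.01% of those of primordial germ cells. The 3 leading entries held 50% of piRNA reads in spermatozoa, against 44 in primordial germ cells, and 90% were reached with 267 entries in spermatozoa and 2232 in primordial germ cells. PIR64428 led both libraries, at 363421 RPM in spermatozoa and 106562 RPM in primordial germ cells, and was thus 36.3% of the class in spermatozoa. PIR64875 and PIR64874 came next in both, with 69740 and 69711 RPM in spermatozoa against 25453 and 25428 RPM in primordial germ cells. Whether these 2 entries hold the same reads was not tested. PIR75142, with 23350 RPM in spermatozoa and 18633 RPM in primordial germ cells, was the fourth in both, so the 4 leading entries stood in the same order. The entry names are those of the deposited tables, and no gene or position was assigned to them.

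Of 5228 piRNA entries measured, 1176 (22.5%) were higher in spermatozoa by 4-fold or more and 2272 (43.5%) lower by 4-fold or more, with a median log2 ratio of -1.37. This balance depends on the scaling. With TMM factors there were 1728 higher and 1350 lower, with scaling to the 4 classes together 1829 and 1230, and with the deposited normalised values 1949 and 1158. What does not depend on the scaling is the distance between 2 kinds of name among measured entries. The 1984 measured entries with names in PIR had a median of 1.31, with 924 higher and 423 lower, and the 3207 entries with names in mmur and no mark a median of -2.66, with 252 higher and 1849 lower, 3.97 log2 units apart. That distance can still depend on the minimum number of reads, which entries high in the deeper library of spermatozoa reach more easily. With a minimum mean of 10 RPM, chosen after seeing the data, the median of all measured piRNA entries was -2.81. The distance between the kinds of name was not recomputed with that minimum. PIR entries held 72.3% of piRNA reads in spermatozoa and 50.8% in primordial germ cells. The 37 measured entries marked chrM had log2 ratios of -1.56 to 1.55 with class scaling, all within 4-fold, but TMM factors, scaling to the 4 classes together and the deposited normalised values move the median piRNA ratio by 1.70 to 2.11 and take the upper ones past 4-fold. They held 0.166% of piRNA reads in spermatozoa and 0.172% in primordial germ cells.

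The entries with the highest ratios were without a read in primordial germ cells: PIR232333 had 140.3 RPM in spermatozoa, at least 272-fold higher, and PIR4018 94.5 RPM, at least 183.4-fold higher. Of the 1176 higher entries, 424 had no read in primordial germ cells, and of the 2272 lower entries 23 had none in spermatozoa. PIR16725 was such an entry, with 0 reads in spermatozoa and 151 RPM in primordial germ cells. mmur000385364, mmur000385363 and mmur000385362 have consecutive names and shared a value of 0.0116 RPM in spermatozoa, less than 1 read, while they had 220.8, 219.9 and 169.6 RPM in primordial germ cells. With runs of such neighbours counted once, 1008 entries were higher and 1742 lower.

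Endo-siRNA tables were closer in depth, with 1370190 reads in spermatozoa and 1216678 in primordial germ cells. Entries with a read numbered 99528 in spermatozoa and 67597 in primordial germ cells, and 40245 had a read in both, 40.4% of those of spermatozoa and 59.5% of those of primordial germ cells. Of 2164 entries measured, 528 (24.4%) were higher in spermatozoa by 4-fold or more and 813 (37.6%) lower by 4-fold or more, with a median log2 ratio of -0.20. The sign of this median depends on the scaling: it was 0.26 with the 4 classes together, 0.17 with TMM factors and 0.44 with the deposited normalised values. With a minimum of 1 read it was 0.97. One entry led both libraries: mmur000042018 had 92451 RPM in spermatozoa and 43084 RPM in primordial germ cells. It had 106.6 RPM in spermatogonia, which lie between the 2 in the germ line, 19.6 RPM in oocytes and 1.29 RPM in zygotes.

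That pattern held for many leading entries. Of the 50 endo-siRNA entries with the most reads in spermatozoa, 35 had at least 1000 RPM in primordial germ cells, 1 in spermatogonia, 0 in oocytes and 0 in zygotes. How many of all endo-siRNA entries reached 1000 RPM in each library was not counted. More leading entries were needed for 50% of these reads in spermatogonia, oocytes and zygotes than in spermatozoa or primordial germ cells. Counts at a fixed RPM are therefore not like for like. A level of 10 RPM was reached by all 50 in primordial germ cells, by 32 in spermatogonia, by 21 in oocytes and by 19 in zygotes. The 50 together held 41.6% of endo-siRNA reads in spermatozoa, 20.2% in primordial germ cells, 1.18% in spermatogonia, 0.365% in oocytes and 0.467% in zygotes. mmur000137958 had 15266 RPM in spermatozoa and 7555 RPM in primordial germ cells, with 42.5 RPM in spermatogonia. mmur000134011 had 14343 RPM in spermatozoa and 5895 RPM in primordial germ cells, with 76.5 RPM in spermatogonia. For comparison, among the 50 leading piRNA entries of spermatozoa 1000 RPM was reached by 42 in primordial germ cells and by 41 in spermatogonia, and among the 50 leading miRNAs by 33 in primordial germ cells and by 36 in spermatogonia. In spermatogonia, piRNA and miRNA reads were held by fewer leading entries than endo-siRNA reads, so these counts are not a like baseline. Taken from the other side, of the 50 leading endo-siRNA entries of primordial germ cells 33 had at least 1000 RPM in spermatozoa, 9 in spermatogonia, 1 in oocytes and 1 in zygotes. Those 50 held 30.1% of endo-siRNA reads in spermatozoa and 33.01% in primordial germ cells, with 4.85% in spermatogonia, 16.6% in oocytes and 17.98% in zygotes. The numbers of 50 entries and 1000 RPM were chosen after the values were seen.

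**Figure D5:**
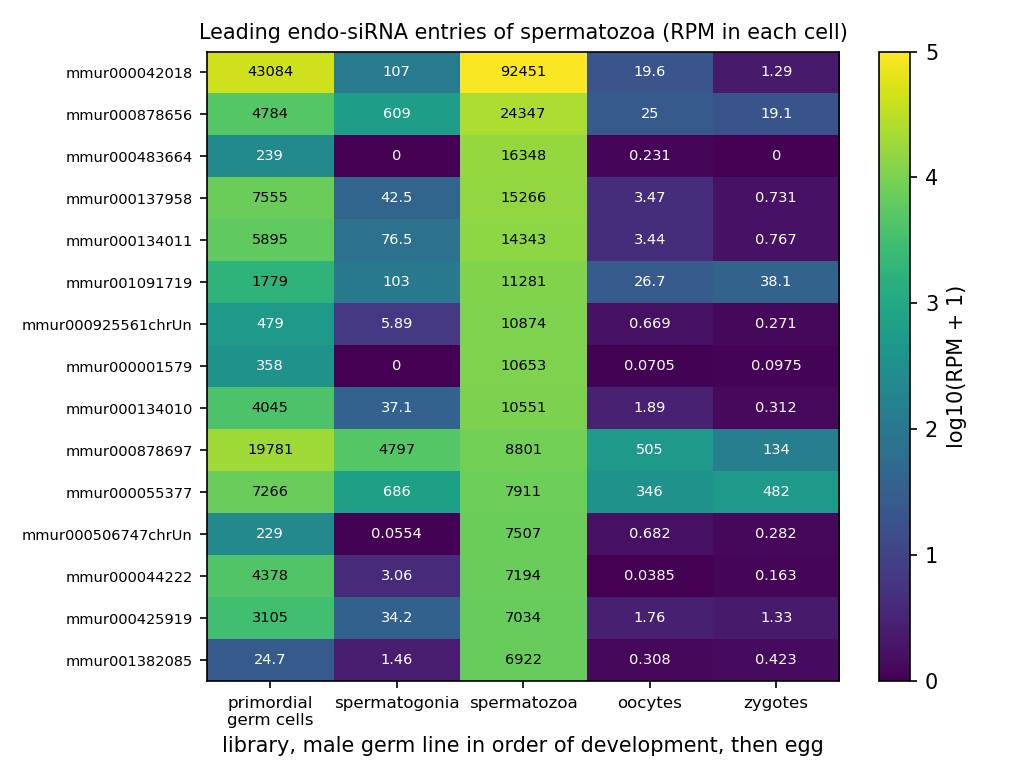
Level of the 15 endo-siRNA entries with the most reads in spermatozoa, in RPM (numbers) and as log10(RPM + 1) (colour), in the 5 libraries, 1 per cell type, the male germ line in order of development. Entries such as mmur000042018 are high in primordial germ cells (43084) and spermatozoa (92451) and low in spermatogonia (106.6).

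Other leading entries differed between the 2 libraries. mmur000483664, the third in spermatozoa, had 16348 RPM in spermatozoa and 239 RPM in primordial germ cells, 68.4-fold higher (60.9 to 76.996). mmur001272954, the third in primordial germ cells, had 428 RPM in spermatozoa and 16116 RPM in primordial germ cells, 37.6-fold lower (34.7 to 40.9). It was the chief entry of oocytes and zygotes, with 160993 RPM and 173624 RPM. mmur001060047 had 1.48 RPM in spermatozoa, 2.03 reads, and 11515 RPM in primordial germ cells, with 866 RPM in spermatogonia. mmur001060046 beside it had 1.48 RPM in spermatozoa and 11040 RPM in primordial germ cells. mmur000066873 had no read in spermatozoa and 2710 RPM in primordial germ cells, at least 1238-fold lower. At the other end mmur001434101, with 1266 RPM in spermatozoa, and mmur001284291, with 1108 RPM, had no read in primordial germ cells.

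Entries with a chrUn mark, meaning sequence not placed on a chromosome, made up 4.61% of endo-siRNA reads in spermatozoa (4.57 to 4.64) and 0.420% in primordial germ cells (0.409 to 0.432). Of the 33 measured, 29 were higher in spermatozoa by 4-fold or more, against 24.4% of all entries, and 0 lower by 4-fold or more. Their median log2 ratio was 4.50, against -0.26 for entries without the mark. The share was 0.289% in spermatogonia, 0.359% in oocytes and 0.343% in zygotes, so the 4 other libraries lay below spermatozoa.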

How the data were processed

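Each of the 5 libraries came with 4 tables of entries; the 2 libraries compared here are described from 8 of them. The read column holds estimated counts as deposited by the authors, since many values are not whole: 17.7% of miRNA and 78.3% of piRNA values above 0 in spermatozoa, and 14.8% and 80.0% in primordial germ cells. A further column is headed TMM per the file headers. Its values, a signal as deposited, were the reads multiplied by a constant of 1.35 in spermatozoa and 0.978 in primordial germ cells, and served only as an alternative. Bowtie 0.12.7, DESeq and mm10 are named without roles, per the submitters' processing notes. The sources used here do not give read filters, annotation sets or how multiply matching reads were handled. An entry absent from a table was taken as 0. 6 snoRNA-table entries that name no single snoRNA were set aside and held 0.896% of that table's reads in spermatozoa and 0.551% in primordial germ cells.

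Reads were scaled to 1000000 of the class in the library. Entries with 100 or more reads over the pair were measured, log2 ratios used a pseudocount of 0.5 reads, and those at least 4-fold apart were counted. An entry with 0 reads in a library can thus be counted although its minimum fold, defined below, lies under 4. Just inside the minimum, miR-669a-3-3p had 0.6 reads in spermatozoa and 99.6 in primordial germ cells; just outside it, miR-152-5p had 11 and 87. With 1 library a side there is no test, SD or p-value. Shares have exact Clopper-Pearson 95% intervals, and folds the exact interval of 2 Poisson counts given their sum, after rounding. PCR copies are not independent molecules, so intervals cover counting error only. Where a library had 0 reads, the fold is a minimum taken from 3 counts there, which are 2.47 RPM for miRNAs in spermatozoa and 0.250 RPM in primordial germ cells. The members, the lists of families and markers, and the rule for named entries were chosen with earlier results of these data known. By that rule the text names miRNAs among the 10 highest and 10 lowest ratios, the 8 with the most reads in each library, and list members; for other classes, the 5 of each. Gene positions came from GENCODE vM21 by gene name, on GRCm38 (mm10), and sequences from RefSeq or GENCODE.

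Alternatives were scaling to the 4 classes together, TMM factors from edgeR 4.0.16 on rounded reads, the deposited normalised values, totals without the 5 leading entries of each library, a minimum of 1 read, a pseudocount of 5 and, for piRNAs and endo-siRNAs, consecutively numbered entries with reads within 10% of the previous one counted as 1. A minimum mean of 10 RPM was added after seeing the data. Ratios and intervals were run on simulated Poisson counts of miRNAs, piRNAs and endo-siRNAs, not of snoRNAs. The intervals assume such counts, so this run cannot show how well they hold for the deposited reads. Python 3.11.15 with pandas 2.3.3, numpy 2.4.6, scipy 1.17.1 and matplotlib 3.10.9, and R 4.3.3, were used.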

Additional observations from a re-analysis of the deposited data

Results flagged for a closer look

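The 6 entries of the snoRNA tables that name no single snoRNA were kept out of all comparisons, yet they held 0.896% of the snoRNA table's reads in spermatozoa and 0.551% in primordial germ cells. They stand out only as a signal in data left aside. The collective C/D box entry had 6846 reads in spermatozoa and 21970 in primordial germ cells. The entry for small non-messenger RNA had 1246 reads in spermatozoa and 1765 in primordial germ cells, and an entry that says only small nucleolar RNA had 722 reads in spermatozoa and 16766 in primordial germ cells.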

How the results depend on the processing

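With 1 library a side no leave-one-out can be made and no spread be given, and scaling decides most counts. No paired analysis was possible because each cell type has 1 library. Counts that moved by more than 1.5 times are given as the percent of entries measured under that setting. Entries higher in spermatozoa by 4-fold or more, against the main 21.6% of miRNAs, 22.4% of snoRNAs, 22.5% of piRNAs and 24.4% of endo-siRNAs, were 6.29%, 3.45% and 34.98% of the first 3 classes with scaling to the 4 classes together, and 6.97%, 3.45% and 37.28% with the deposited normalised values. With a minimum of 1 read they were 39.0% of miRNAs, 30.3% of snoRNAs, 14.5% of piRNAs and 34.96% of endo-siRNAs, and with a minimum mean of 10 RPM, chosen after seeing the data, 9.97% of piRNAs and 20.8% of endo-siRNAs. Entries lower by 4-fold or more, against the main 33.3%, 15.5%, 43.5% and 37.6%, were 70.6% of miRNAs, 52.6% of snoRNAs and 23.5% of piRNAs with scaling to the 4 classes together, 68.1%, 47.4% and 22.15% with the deposited normalised values, and 25.8% of piRNAs with TMM factors. A minimum of 1 read gave 28.2% of piRNAs and 25.7% of endo-siRNAs as lower, and the minimum mean of 10 RPM 38.8% of endo-siRNAs. The other 38 recomputed counts stayed within 1.5 times as counts. Since the minimum changes how many entries are measured, some of these still moved as percents: 19.8% of miRNAs were lower with a minimum of 1 read, and with the minimum mean of 10 RPM 30.3% of miRNAs were higher and 28.2% lower. With the latter minimum 59.0% of piRNAs were lower. Without the 5 leading entries of each class and library, miRNAs were 5.34% of reads in spermatozoa and 50.2% in primordial germ cells, snoRNAs 0.311% in spermatozoa and 1.24% in primordial germ cells, piRNAs 82.99% in spermatozoa and 39.5% in primordial germ cells, and endo-siRNAs 11.4% in spermatozoa against 9.05% in primordial germ cells. Among the entries recomputed one by one, log2 ratios above 2 that changed sign, with scaling to the 4 classes together and then with the deposited normalised values, were those of miR-191-5p (-0.79 and -0.61), miR-16-5p (-0.67 and -0.49), miR-15b-5p (-0.74 and -0.56) and miR-142-3p (-0.90 and -0.73), and, with the first setting alone, miR-99a-5p (-0.0060). The list medians above 2 of miR-10 with miR-196 (-0.71 and -0.53) and of miR-221, miR-222, miR-146 and miR-21 (-0.34 and -0.17) changed sign too. By construction scaling to the 4 classes together shifts all ratios of a class by 1 amount. The deposited normalised values do so nearly, except where reads are few, since 0.5 was added to the multiplied values. Smaller values changed sign more often: counting all sizes, 35 of 700 recomputed ratios of named entries and 31 of 160 recomputed list medians had the other sign.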

Other observations

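miR-191-5p was the eighth miRNA of spermatozoa, with 17192 RPM in spermatozoa and 3671 RPM in primordial germ cells. miR-378a-3p had 15056 RPM in spermatozoa and 29035 RPM in primordial germ cells. The family counts that follow are to be read against the 21.6% of all miRNAs that were higher and the 33.3% that were lower. The miR-30 family had 53770 RPM in spermatozoa and 76013 RPM in primordial germ cells over 11 measured members, of which 1 was higher by 4-fold or more and 3 lower by 4-fold or more. The family of miR-148 and miR-152, with 1 of 5 lower by 4-fold or more, had 26009 RPM in spermatozoa and 50633 RPM in primordial germ cells. The miR-23/27/24 clusters had 0 of 9 higher by 4-fold or more and 4 lower. Of the miR-99/100 and miR-125 families 1 of 7 was higher by 4-fold or more and 3 lower. The group of miR-221, miR-222, miR-146 and miR-21, linked to undifferentiated spermatogonia, had 4 of 7 higher by 4-fold or more among miRNAs, and the repeat-like miR-3470 to miR-3473 had 2 of 6. miR-129-5p, of the neuronal list, had 2 reads in spermatozoa and 610 RPM in primordial germ cells.

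Grouped by seed, 74 seeds had a summed level of 1000 RPM or more over the 2 libraries, of which 18 were higher by 4-fold or more in spermatozoa and 26 lower by 4-fold or more. Among single miRNAs 21.6% were higher and 33.3% lower, so the shares of seeds lay near those of all miRNAs. miRNAs without a RefSeq match are not in these groups: the matched ones held 49.8% of miRNA reads in spermatozoa and 91.8% in primordial germ cells. The 6 members with the seed of miR-20a-5p summed to 9826 RPM in spermatozoa and 81509 RPM in primordial germ cells, and the let-7 seed to 111684 RPM in spermatozoa and 6486 RPM in primordial germ cells.

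scaRNA6, which guides modification of spliceosomal RNA, had 127.5 RPM in spermatozoa and 644 RPM in primordial germ cells. The other Cajal body RNA measured, scaRNA18, lay the other way, with 74.0 RPM in spermatozoa and 4.39 RPM in primordial germ cells. SNORD64 of an imprinted transcript had 3 reads in spermatozoa and 67.9 RPM in primordial germ cells.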
